A study of Mus musculus with 6 samples.

Results

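The globins and erythroid genes described here are 9 genes that red blood cells and their precursors use: the embryonic globin genes Hbb-bh1, Hbb-y and Hba-x, the adult-type globin gene Hbb-b2, and the erythroid genes Alas2, Slc4a1, Klf1, Ahsp and Gata1. They were taken by name, with every probe set that the platform annotation gives to that gene alone. Of the 9 genes, 8 had such probe sets, 15 in all among the 45037 on the array that are not controls, and Ahsp, which encodes a chaperone of alpha-haemoglobin, had none used here. The array named 18193 genes in this way. The set was chosen by name with its levels in these same 6 hearts already known, by genotype and by the letters that open the sample descriptions, so the levels by letters are given as a description.

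Total RNA of mouse hearts of strain C57B6 was measured on Affymetrix Mouse430_2 arrays, which report a log2 intensity for each probe set. There were 3 EphB4 mutant hearts and 3 wild-type hearts, and the design text speaks of 6 mice. EphB4 is a receptor of endothelial cells for ephrin-B2, and the series title places the arrays in work on ephrin-B2 of the heart muscle and formation of the ventricular wall. The labels do not give the kind of mutation, the age of the mice or whether blood was flushed from the hearts. The descriptions begin with eM for mutant 3 and wild-type 3, and with eI for mutants 1 and 2 and wild-types 1 and 2. No label explains these letters.

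Red blood cells of the mouse embryo arise in waves. Primitive cells from the yolk sac make embryonic chains, though not these alone: the zeta-type chain of Hba-x and the beta-type chains of Hbb-bh1 and Hbb-y. Definitive cells from the fetal liver carry adult chains. In both, the zinc finger factors GATA1 and KLF1 switch on globins, haem synthesis and membrane proteins. In a heart sample, transcripts of this kind are commonly read as markers of the blood in its chambers and vessels. On such arrays, fewer red cells in a sample and less RNA per red cell cannot be told apart.

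Promoters of the set are shown because 2 of its members, Gata1 and Klf1, encode factors that bind motifs of the kind marked below. Whether such motifs play a part in the levels of these hearts was not tested. RefSeq's table (GRCm38.p6) held an entry for 5 of the 9 genes, Hbb-y, Hba-x, Alas2, Klf1 and Gata1. Each line gives the 250 bases before the annotated start, 5′ to 3′ on the gene's strand, at chr7:103853208-103853457 (- strand) for Hbb-y, chr11:32276350-32276599 (+ strand) for Hba-x, chrX:150547167-150547416 (+ strand) for Alas2, chr8:84901732-84901981 (+ strand) for Klf1 and chrX:7967911-7968160 (- strand) for Gata1. Capitals mark matches to the GATA motif (the letters GATA, with A or T before them and A or G after them) or to the CACC motif of KLF1 (CCNCNCCC), both searched on both strands, with neighbouring matches joined where they overlap.
Hbb-y: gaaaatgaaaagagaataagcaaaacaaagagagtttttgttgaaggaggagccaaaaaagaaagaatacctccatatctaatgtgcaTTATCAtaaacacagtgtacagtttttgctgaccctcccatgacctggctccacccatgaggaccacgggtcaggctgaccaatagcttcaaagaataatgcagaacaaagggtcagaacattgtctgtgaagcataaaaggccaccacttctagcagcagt
Hba-x: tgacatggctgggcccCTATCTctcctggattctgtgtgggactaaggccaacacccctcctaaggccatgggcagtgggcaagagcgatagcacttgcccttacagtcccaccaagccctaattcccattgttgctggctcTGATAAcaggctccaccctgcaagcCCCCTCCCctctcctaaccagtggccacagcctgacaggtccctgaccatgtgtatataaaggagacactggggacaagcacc
Alas2: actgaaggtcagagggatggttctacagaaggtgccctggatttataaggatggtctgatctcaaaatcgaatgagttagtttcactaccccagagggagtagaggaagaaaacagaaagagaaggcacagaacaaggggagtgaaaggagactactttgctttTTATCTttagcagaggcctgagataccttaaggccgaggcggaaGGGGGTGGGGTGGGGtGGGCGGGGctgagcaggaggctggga
Klf1: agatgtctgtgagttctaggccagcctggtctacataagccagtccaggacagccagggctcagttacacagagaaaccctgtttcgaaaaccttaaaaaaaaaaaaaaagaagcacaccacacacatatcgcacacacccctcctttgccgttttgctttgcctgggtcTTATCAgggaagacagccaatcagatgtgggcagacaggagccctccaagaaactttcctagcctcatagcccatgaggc
Gata1: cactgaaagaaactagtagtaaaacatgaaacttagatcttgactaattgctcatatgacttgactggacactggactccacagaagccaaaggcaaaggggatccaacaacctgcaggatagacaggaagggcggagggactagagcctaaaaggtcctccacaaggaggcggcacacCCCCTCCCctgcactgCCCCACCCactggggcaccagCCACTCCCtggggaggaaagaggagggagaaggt

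A GATA match lay in 4 of these 5 promoters, at -162 to -157 in Hbb-y, at -234 to -229 and -108 to -103 in Hba-x, at -86 to -81 in Alas2 and at -80 to -75 in Klf1, counted back from the start. Of all 32851 promoters in the table, 26.5% held one. CACC matches lay in 3 of the 5: 1 in Hba-x, 4 partly overlapping ones in Alas2 and 3 in Gata1, against 45.9% of all promoters with at least 1. A match is a run of letters, not a measured site. Hbb-bh1 and Hbb-y are next to each other in the beta-globin cluster on chromosome 7, and Hba-x lies next to Hba-a1 on chromosome 11.

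In eM hearts every measured gene of the set read lower than in eI hearts, with no overlap between the 2 eM and the 4 eI hearts at the probe set that represents the gene. Alas2 and Slc4a1 stood farthest apart, close to 4-fold, Hba-x, Gata1 and Klf1 by about 2-fold, and Hbb-bh1, Hbb-b2 and Hbb-y by less. Among the 13572 genes tested across the array, 23.8% lay below without overlap in eM hearts (20.8% above), and 1.35% lay below by at least 2-fold (0.56% above); of the set these were 8 of 8 and 5 of 8. Since the genes were chosen with this contrast known, the counts describe them and carry no test. The median difference over the set was -1.02 log2, against -0.03 over all tested genes.

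Embryonic globins were among the brightest transcripts of these hearts. Hba-x (probe set 1448716_at), the zeta-type chain, read 14.44, 14.32 and 13.11 in mutant hearts 1, 2 and 3, against 13.73, 14.45 and 13.16 in wild-type hearts 1, 2 and 3. Heart 3 of each genotype, the eM heart, was the lowest, and wild-type 1 lay between it and the other eI hearts. The eM hearts averaged 13.13 and the eI hearts 14.23 ± 0.34 (SD, n = 4), a difference of -1.10 log2 or 2.15-fold lower.

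Hbb-bh1 (1437810_a_at), a beta-type embryonic chain, read 14.13, 14.08 and 13.37 in mutant hearts 1, 2 and 3, against 13.57, 14.27 and 13.39 in wild-type hearts 1, 2 and 3 at its brightest probe set. The order was the same as for Hba-x, but wild-type 1 came within 0.18 of the eM hearts. Its difference between eM and eI hearts was -0.63, and the other probe sets of the gene gave -0.58 and -0.69. At the one that gave -0.58, the lowest eI heart, wild-type 1, read 13.18 and the eM hearts 13.18 and 13.24, so the groups overlapped.

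Hbb-y (1436823_x_at), the epsilon-type chain next to it, read 14.40, 14.42 and 13.81 in mutant hearts 1, 2 and 3, against 14.07, 14.45 and 13.97 in wild-type hearts 1, 2 and 3. Its difference of -0.44 between eM and eI hearts was the smallest of the set. Of its other probe sets, one gave -0.46 and the other, less bright over the 6 hearts (mean 13.87 against 14.19), gave -0.77. In every Hbb-y probe set the eM hearts lay below the eI hearts without overlap.

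All 7 embryonic globin probe sets lay close to the top of the measured range: their highest values came within 0.34 to 0.63 log2 of the highest value on any array, 14.79. How much this ceiling narrowed their differences was not tested. Hbb-b2 (1427865_at), an adult-type beta chain, was dim at its own probe set, with 6.33, 6.48 and 5.74 in mutant hearts 1, 2 and 3, against 5.82, 6.37 and 5.41 in wild-type hearts 1, 2 and 3. The eM hearts were again the lowest, although the gap to the nearest eI heart was only 0.07 and closed under quantile normalization. A second Hbb-b2 probe set was dimmer still (mean 3.90) and left out by the filter on dim probe sets; it differed by -0.62 between eM and eI hearts.

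The erythroid enzymes and membrane proteins showed the widest spread. Alas2 (1451675_a_at), the red cell form of the rate-limiting enzyme of haem synthesis, read 9.20, 9.05 and 7.0 in mutant hearts 1, 2 and 3, against 7.99, 9.22 and 6.80 in wild-type hearts 1, 2 and 3. The eM hearts averaged 6.90 and the eI hearts 8.86 ± 0.59 (SD, n = 4), which is -1.96 log2 or 3.90-fold lower in eM hearts. Here too wild-type 1 stood between the eM hearts and the other eI hearts, with -1.17 log2 against the mean of those 3.

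Slc4a1 (1416464_at), the band 3 anion exchanger of the red cell membrane, read 10.56, 10.16 and 8.23 in mutant hearts 1, 2 and 3, against 9.10, 10.75 and 8.17 in wild-type hearts 1, 2 and 3. The difference between eM and eI hearts was -1.94 log2, 3.84-fold lower in eM hearts, and a second bright probe set gave -2.26. The remaining one, with a mean of 4.39, was left out as dim and gave -0.45.

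Klf1 (1418600_at), the erythroid Krüppel-like factor, read 8.61, 8.40 and 7.35 in mutant hearts 1, 2 and 3, against 7.88, 9.06 and 7.61 in wild-type hearts 1, 2 and 3. It had the highest value in wild-type 2, and the eM hearts lay 0.27 or more below wild-type 1. Gata1 (1449232_at), the erythroid and megakaryocyte GATA factor, read 7.37, 6.92 and 6.03 in mutant hearts 1, 2 and 3, against 6.62, 7.19 and 5.94 in wild-type hearts 1, 2 and 3. Both factors were about 2-fold lower in eM hearts, by -1.01 log2 for Klf1 and -1.04 for Gata1.

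**Figure D1:**
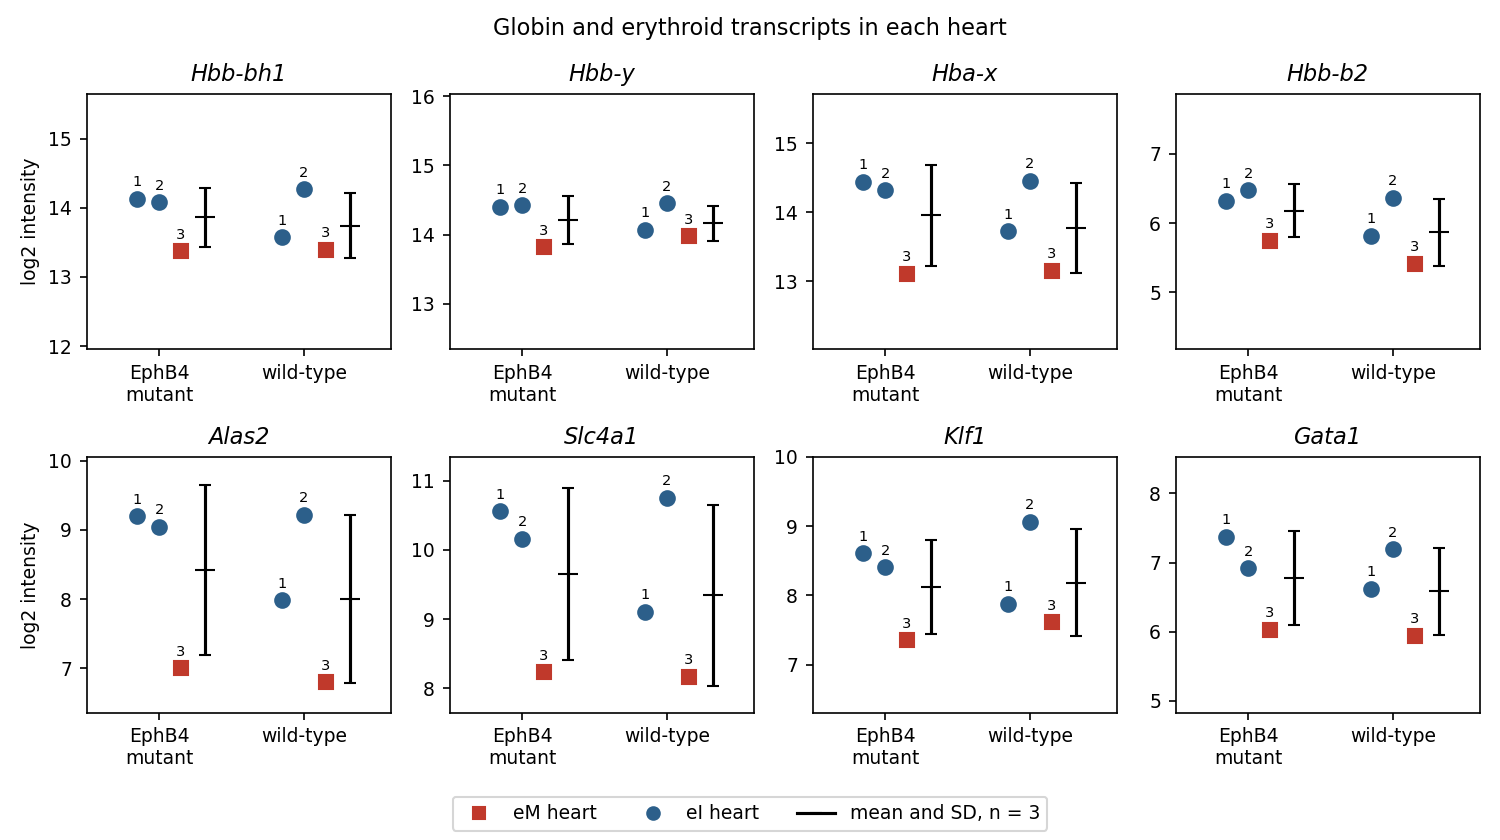
Log2 intensity of the 8 measured genes in each heart, at the probe set that represents the gene, with every panel spanning the same log2 range. EphB4 mutant hearts stand left of wild-type hearts, numbers are replicate numbers, red squares are eM hearts, blue circles eI hearts, and black bars the mean with its SD (n = 3). In each panel the 2 red squares lie below the 4 blue circles, and wild-type 1 is the lowest blue circle.

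The same order held inside each genotype. In mutant hearts, eM minus eI was -2.12 for Alas2, -2.12 for Slc4a1, -1.27 for Hba-x and -0.60 for Hbb-y. Within wild-type hearts these differences were -1.81, -1.76, -0.93 and -0.29. Since both eM hearts lay below all 4 eI hearts at 8 of 8 genes, the order inside each genotype was fixed and adds no support. Over all tested genes, 47.8% lay below in the mutant eM heart and 37.9% in the wild-type eM heart. Each of these comparisons rests on 1 eM heart.

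Wild-type 1 was the lowest eI heart for 8 of 8 genes, whereas 38.2% of all tested genes were lowest there. Its difference from the mean of the other 3 eI hearts was -0.35 log2 for Hbb-y, -0.59 for Hbb-bh1, -0.68 for Hba-x, -0.57 for Hbb-b2, -0.54 for Gata1, -0.81 for Klf1 and -1.39 for Slc4a1. Over all tested genes the median of this difference was -0.02. The upper quartile of that array, 8.05, was below that of the other arrays, 8.11 to 8.17. Its median, 6.01, was above that of the others, 5.89 to 5.96.

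The erythroid genes and the embryonic globins can be set side by side heart by heart, although the globins lie near the top of the scale and the effect of that on their range was not tested. With each gene centred on its own mean, Alas2, Slc4a1, Klf1 and Gata1 averaged -0.98 in mutant 3 and -1.0 in wild-type 3, against 0.80, 0.50, -0.23 and 0.92 in mutants 1 and 2 and wild-types 1 and 2. The 3 embryonic globins averaged -0.52 and -0.45 in the same eM hearts, against 0.37, 0.32, -0.16 and 0.44 in those eI hearts. Erythroid minus embryonic was -0.46 and -0.56 in the eM hearts and -0.07 to 0.48 in the eI hearts. Because of the bright globin probe sets, nothing is read from the different widths of these ranges.

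**Figure D2:**
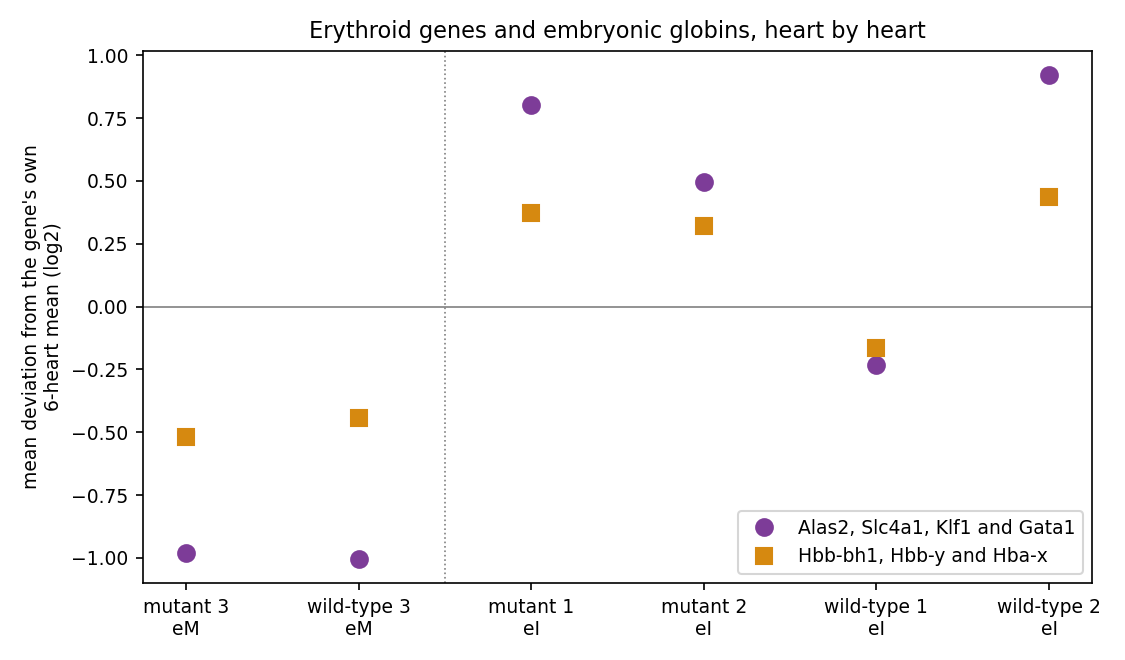
Mean log2 deviation of each heart from the gene's own mean over 6 hearts, for 4 erythroid genes (circles) and 3 embryonic globins (squares), with eM hearts left of eI hearts and mutant before wild-type within each. Both groups of genes are lowest in the eM hearts, with -1.0 to 0.92 over the hearts for the erythroid genes and -0.52 to 0.44 for the embryonic globins, whose probe sets lie near the top of the scale.

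EphB4 mutant and wild-type hearts overlapped at 8 of 8 genes, where 4.39% of all tested genes did not overlap. The mutant means were the higher ones for 7 genes, by 0.05 log2 for Hbb-y to 0.41 for Alas2, and Klf1 had a difference of -0.06. Limma called 0 of these 8 genes and 0% of the 13572 tested (adjusted p = 0.9997 for each of the 8). In this fit 127 genes over the array had an unadjusted p under 0.05, and with the letters as a block 416 had (limma). Without a block the eM and eI difference counts as spread between hearts, so such high adjusted p-values do not show that the genotypes are alike. The median difference of the set was 0.18, against 0.00 over all tested genes.

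Alas2 averaged 8.42 ± 1.23 in mutant hearts and 8.0 ± 1.21 in wild-type hearts (SD, n = 3 each), and its 95% confidence interval ran from -1.44 to 2.27 log2. For Slc4a1 the means were 9.65 ± 1.24 in mutant and 9.34 ± 1.31 in wild-type hearts, with an interval of -1.63 to 2.25. The SD inside each genotype was larger than the difference for 8 of 8 genes. Exact permutation tests (two-sided) gave p from 0.5 to 1.0 over the 8 genes, where 3 against 3 hearts cannot go below 0.1.

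The embryonic globins had narrower intervals, at probe sets near the top of the scale. Hbb-y averaged 14.21 ± 0.34 in mutant hearts and 14.16 ± 0.25 in wild-type hearts (SD, n = 3 each), a difference of 0.05 with a 95% interval of -0.45 to 0.54. Hbb-bh1 differed by 0.12 (-0.58 to 0.82) and Hba-x by 0.18 (-0.89 to 1.24). Among the erythroid factors, Gata1 differed by 0.19 (-0.82 to 1.20) and Klf1 by -0.06 (-1.18 to 1.05). Hbb-b2 had the largest difference among the globins, 0.32 (-0.37 to 1.0).

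With the letters as a block, the intervals narrowed and still spanned 0 for each gene, such as -0.32 to 1.15 for Alas2, -0.26 to 0.36 for Hbb-y and -0.05 to 0.68 for Hbb-b2 (limma, adjusted p = 0.9974 for each). With the replicate block, which pairs same-numbered hearts, the interval of Hbb-b2 was 0.04 to 0.60 and its adjusted p 0.9993. Mutant minus wild-type was 0.52 for Alas2, 0.43 for Slc4a1 and 0.29 for Hba-x within the eI hearts, and 0.20, 0.07 and -0.04 within the eM hearts. An interaction of genotype with the letters was not called for any gene of the set (limma, adjusted p from 0.846 for Hbb-y to 0.993 for Hbb-b2), with 1 heart of each genotype in eM. Without wild-type 1, which was low for the whole set, mutant minus wild-type was 0.19 for Slc4a1, 0.41 for Alas2, 0.03 for Hbb-bh1 and -0.22 for Klf1. Xist, the RNA that silences an X chromosome in females, read 6.73, 11.75 and 6.78 in mutant hearts 1, 2 and 3, against 11.76, 11.51 and 12.33 in wild-type hearts 1, 2 and 3. With its level as a covariate, mutant minus wild-type was 0.84 for Alas2, 0.60 for Slc4a1, 0.53 for Hbb-b2, 0.43 for Hba-x, 0.27 for Hbb-bh1, 0.22 for Hbb-y and 0.10 for Klf1, and limma called 0 genes.

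**Figure D3:**
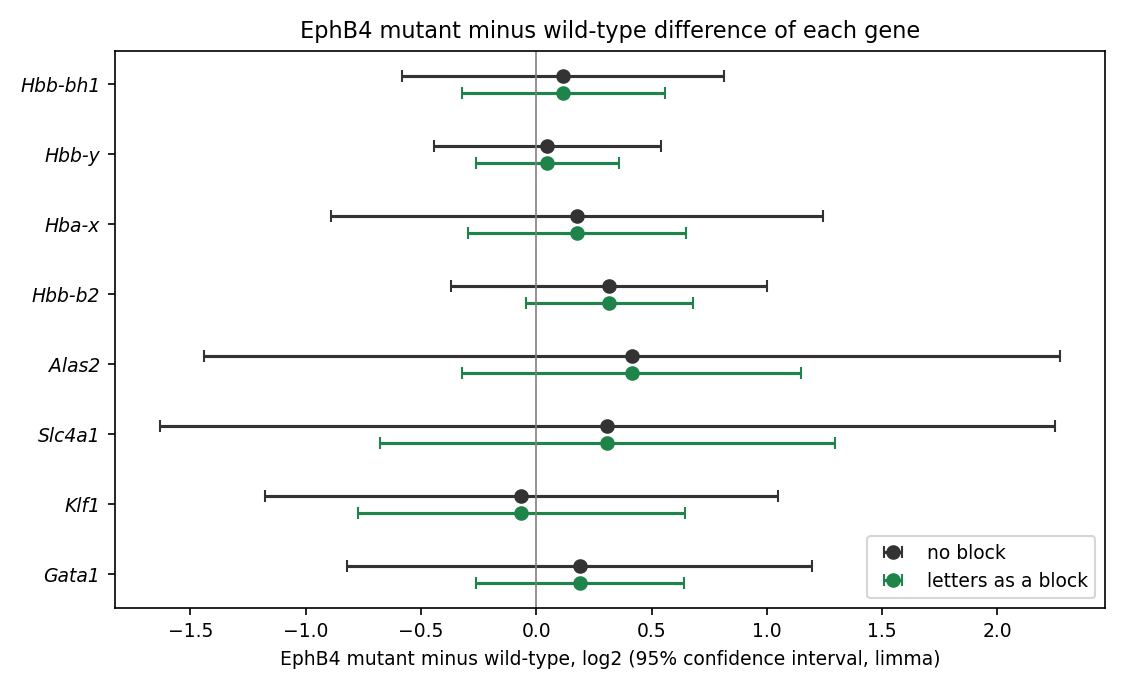
EphB4 mutant minus wild-type difference in log2 intensity for the 8 measured genes (points) with 95% confidence intervals from limma, in black without a block and in green with the letters eM and eI as a block. Every interval includes 0, and those of Alas2 (-1.44 to 2.27 without a block) and Slc4a1 are the widest.

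Genes of the further erythroid lists lay on both sides, with more of them lower than higher in eM hearts. How much of their signal came from red cells, and how much from other cells of the heart, was not tested. Of 73 further erythroid genes that passed the filter on dim probe sets (79 had a probe set), 35 lay below without overlap in eM hearts, 13 of them by at least 2-fold, and 7 lay above, against 23.8%, 1.35% and 20.8% of all tested genes. Their median difference was -0.25. Between genotypes limma called 0 of the 73, with a median of 0.03, and 3 of the 73 did not overlap, against 4.39% of all tested genes.

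Membrane and skeleton genes of red cells were lower in eM hearts at 13 of 17, where 23.8% of all tested genes were, with a median of -0.99. The largest differences were those of the blood group genes Kel (-1.92), Rhd (-1.88), Rhag (-1.71) and Ermap (-1.55). Rhd averaged 7.07 in eM hearts and 8.96 in eI hearts. Sptan1 (0.21), Slc2a1 (0.53) and Tmod1 (0.41) were the 3 that lay above, where 20.8% of all tested genes did.

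Erythroid transcription factors were lower in eM hearts at 7 of 18 and higher at 1, Sox6 (0.31). Of all tested genes, 23.8% were lower and 20.8% higher. Hemgn, a nuclear protein of blood precursors, gave -2.39 and Nfe2, a subunit of the globin activator NF-E2, gave -1.54. Ikzf1 gave -0.83 and Tal1, which works with GATA1, gave -0.70. Gata2, which precedes Gata1 in blood precursors and is also made by endothelium, gave -0.03 with overlap.

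Haem synthesis beyond Alas2 showed smaller differences, lower in eM hearts at 5 of 10 with a median of -0.26. Alas1, the form of the enzyme that all tissues use, gave -0.59, the final enzyme Fech -0.57, Ppox -0.57 with overlap and Urod -0.47. Of 7 iron uptake genes, 2 were lower and 1 higher, with a median of -0.03. Over all tested genes 23.8% were lower and 20.8% higher, so nothing is read from the iron uptake counts. Slc25a37, the mitochondrial iron importer of erythroblasts, gave -1.36, whereas the transferrin receptor Tfrc gave -0.03 with overlap.

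Red cell enzymes and maturation genes were lower at 7 of 12 and higher at 2, against 23.8% and 20.8% of all tested genes. Car2, a carbonic anhydrase, had the largest difference of any further erythroid gene, with 9.28 in mutant 3 and 9.18 in wild-type 3, against 11.98, 11.90, 11.13 and 12.11 in mutants 1 and 2 and wild-types 1 and 2 (-2.55). Trim10 gave -1.42 and Blvrb -0.93. Erythropoietin signalling was lower at 2 of 9 genes, where 23.8% of all tested genes were, and its receptor gene Epor gave -0.53. Among other globins, Hba-a2 gave -0.55 with overlap at a dim probe set.

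Between genotypes, the largest differences in these lists were 0.35 for Kel, 0.35 for Trim10, -0.35 for Hba-a2, 0.31 for Ldb1, 0.28 for Cpox, 0.25 for Slc25a37 and 0.11 for Socs3, and each of them overlapped. The 3 genes without overlap were Steap3, Cbfa2t3 and Mkrn1, higher in mutant hearts by 0.09, 0.20 and 0.22. None of these passed limma's threshold.

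**Figure D4:**
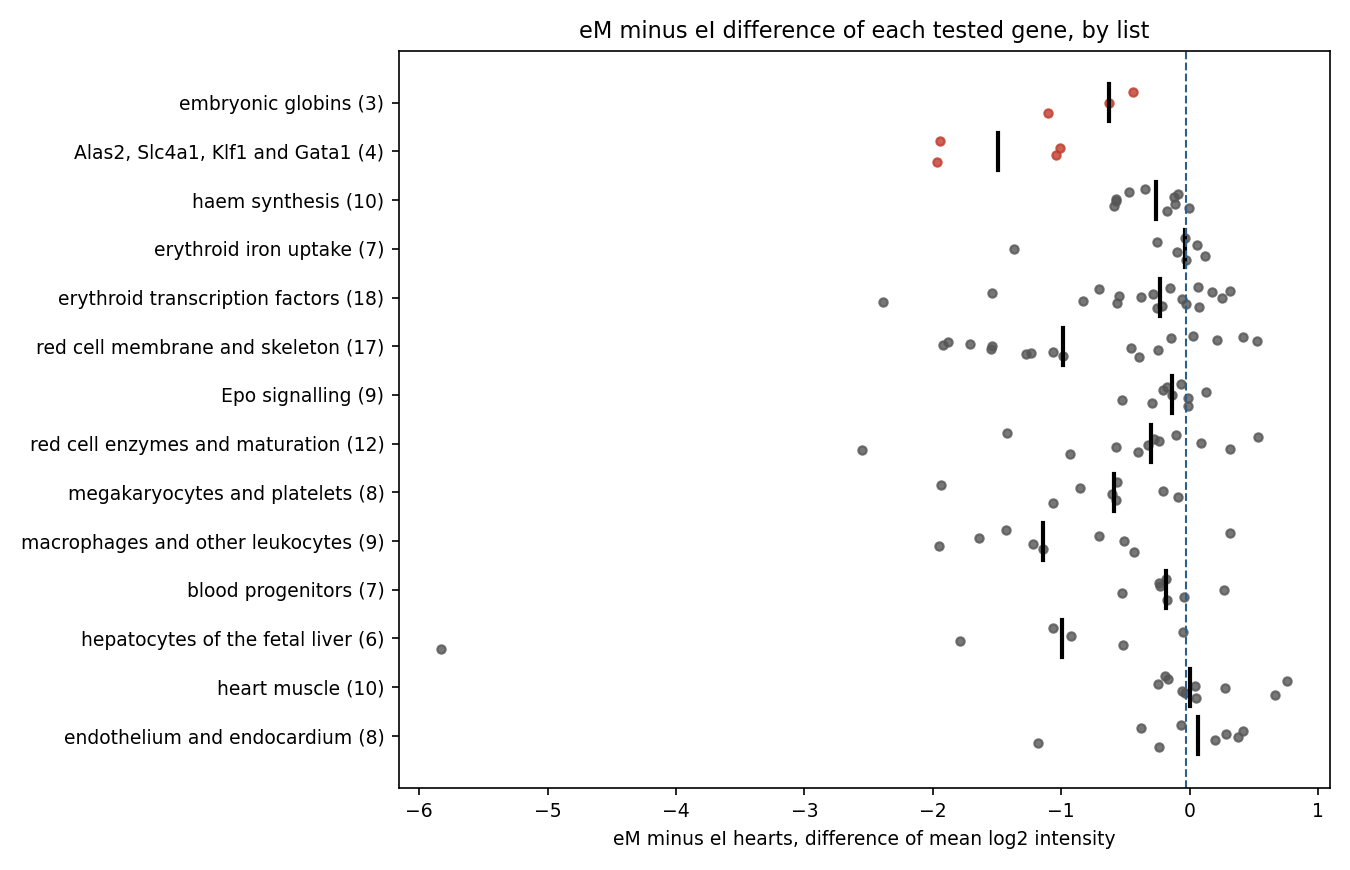
Difference of mean log2 intensity, eM minus eI hearts, of each tested gene (points) by list, with the list's median as a black bar and the number of genes in brackets. The dashed line is the median of all tested genes, -0.03. Embryonic globins and the erythroid genes of the set (red) lie wholly below it, and red cell membrane genes have a median of -0.99. Heart muscle genes have a median of 0.00 and lie on both sides, from -0.25 for Nppa to 0.76 for Ryr2.

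Genes listed for some other blood and tissue sources differed with the letters as well. Of all tested genes, 23.8% lay below in eM hearts and 20.8% above. Macrophage and leukocyte genes were lower in eM hearts at 7 of 9 tested genes, among them Csf1r (-1.64) and C1qb (-1.95). Lyve1 (0.31) lay above without overlap, and Cd68 (-0.51) overlapped. Mean log2 levels of these genes were 5.66 to 5.76 in eM and 6.45 to 6.89 in eI hearts. Platelet and megakaryocyte genes were lower at 7 of 8, with 7.01 to 7.26 in eM and 7.67 to 8.12 in eI hearts (Ppbp -1.94). Genes listed for hepatocytes were lower at 5 of 6, with 5.29 to 5.61 in eM and 6.67 to 8.38 in eI hearts. The highest level of this list was in wild-type 2, where Afp read 11.83 against 7.77 to 9.0 in the other eI hearts. In the eM hearts Afp read 3.03 in mutant 3 and 3.81 in wild-type 3 (-5.83). Alb was dim, at 5.27 and 5.29 in eM and 5.63 to 6.10 in eI hearts, and Fgb, Fgg and Ahsg were left out as dim. The list's name is therefore no finding on the source of these transcripts, which was not tested.

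Heart muscle genes, which check the tissue label, were bright in all 6 hearts, with mean levels of 13.41 to 13.43 in eM and 13.29 to 13.33 in eI hearts. Of the 10, 3 lay below in eM hearts and 3 above. Those above were Ryr2 (0.76), Myh6 (0.67) and Myl7 (0.28), and the largest decrease was that of Nppa (-0.25). Endothelial genes lay below at 3 of 8, Emcn among them (-1.18), and above at 3, Pecam1 among them (0.41). Blood progenitor genes lay below at 3 of 7, Kit among them (-0.53). Over all tested genes 23.8% lay below and 20.8% above, and with so few genes nothing is read from these counts. RNA quality differed with the letters as well. For the beta-actin control, the excess of the 3-prime over the 5-prime probe set was 0.77 and 0.51 in eM hearts of mutant and wild-type mice, against 0.28 to 0.41 in eI hearts. The corresponding Gapdh value was 0.12 and 0.03 in those eM hearts, against -0.10 to 0.02 in eI hearts. The 5-prime probe set of 18S ribosomal RNA read 11.62 and 12.34 in them, against 9.75 to 10.42 in eI hearts, and the other 18S probe sets were also higher without overlap. The part of these other lists and of RNA quality in the lower erythroid levels was not tested.

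Some genes followed the set closely in all 6 hearts. Measured as the root mean square difference between log2 values centred on each gene's mean, over 6 hearts, Nfe2 (0.05), Slc25a37 (0.07), Trim10 (0.13), Ermap (0.13) and Icam4 (0.15) were the nearest to the mean of Alas2, Slc4a1, Klf1 and Gata1. Nfe2 read 7.81, 7.42 and 5.87 in mutant hearts 1, 2 and 3, against 6.66, 7.86 and 5.92 in wild-type hearts 1, 2 and 3. All 5 are in the lists above. For Hbb-bh1 the nearest were Aqp3 (0.06), Il23a (0.07), Sgk1 (0.07), Cdc42ep3 (0.07) and Fcgr1 (0.08), of which Fcgr1, an Fc receptor gene, was in the macrophage list.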

How the data were processed

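The authors deposited log2 intensities; the submitters' processing notes name RMA, the robust multi-array average, without a version. Values ran from 2.42 to 14.79, with array medians from 5.89 to 6.01. Scanner files were not used, so distance above background and saturation are not known, and the number of arrays limits the precision. Groups came from titles, and letters from descriptions. The p-values measure the spread between these hearts, and no label tells how far they were prepared separately.

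Of 45101 probe sets, 64 controls were left out. By the platform annotation, 34945 named 1 gene, 932 several (assigned to none) and 9160 were unnamed here. The lowest 40% by mean (below 5.38) were left out of tests, leaving 27022. Each gene was read at its brightest probe set (13572 genes tested, 8 of the set); other probe sets are given where they differ. Of the 15 probe sets of the set, 13 passed.

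The genotypes were tested with limma 3.58.1 under R 4.3.3 (two-sided, Benjamini-Hochberg over all genes, threshold 0.05), checked on simulated arrays. The comparison of eM with eI hearts is descriptive. Same-numbered hearts deviated together (r of 0.18, 0.36 and 0.74), as did mutant 1 with wild-type 2 (0.47) and mutant 2 with wild-type 1 (0.49), so numbers 1 and 2 are not told apart; the fit with these numbers as pairs is given too; no label says what same-numbered hearts share. Alternatives covered the filter, scaling, choice of probe set, fit, blocks, the Xist level as a covariate, and leaving out each heart. Promoters came from RefSeq (GRCm38.p6). Members and lists were chosen with earlier results of these data known. Of each further list, up to 4 genes of largest difference were to be named; Gata2, Tfrc, Sptan1, Slc2a1 and Tmod1 were named after their values were seen, as were Steap3 and the genes of other cell types. Fech was in 2 lists and counted once in the total. Matplotlib 3.10.9 under Python 3.11.15 drew the figures.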

Additional observations from a re-analysis of the deposited data

Results flagged for a closer look

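Wild-type 1 lay far below the other 3 eI hearts, by Dixon's criterion for 4 values, at 5 of the 15 probe sets of the set. These were Alas2 (7.99, nearest 9.05), 1 of Hbb-bh1 (13.47, nearest 14.10) and all 3 of Hbb-y (14.09, 14.07 and 13.81). Probe sets of several alpha-globin genes together showed it too, at 14.42 and 13.80, and so did the mean of red cell enzymes and maturation genes (9.62, nearest 9.98). Wild-type 2 lay far above the others for the mean of the hepatocyte list (8.38, nearest 6.84), with Apoa1 at 9.47 and Ttr at 9.62. In all, 11 of 81 such groups of 4 values met the criterion, which about 1 in 20 groups picked blindly would meet by chance. Members, lists and named genes were chosen with values of these hearts known, and probe sets of 1 gene or of linked genes are not independent. The count therefore carries no test.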

How the results depend on the processing

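The number of genes called between EphB4 mutant and wild-type hearts was 0 under all 13 alternatives that kept every heart or the eI hearts alone, and 0 to 2 when single hearts were left out; the 2 came without mutant 2 (smallest adjusted p = 0.000156, limma), and neither was of the set. Members called stayed at 0 throughout. With the replicate block, as with the letters as a block, the count was 0 (smallest adjusted p = 0.9993 and 0.9974). The difference of Klf1, -0.06 without a block, was 0.0401 with array weights, 0.0341 in the eI hearts alone and 0.10 with the Xist level as a covariate; the cause was not tested. Array weights also moved uncalled differences by over 1.5 times, to 0.74 for Alas2, 0.59 for Slc4a1, 0.43 for Gata1, 0.38 for Hba-x, 0.18 for Hbb-bh1 and 0.14 for Hbb-y. In the eI hearts alone they were 0.29 for Hba-x, 0.19 for Hbb-bh1 and 0.15 for Hbb-y, and at the probe set of largest variance 0.17 for Slc4a1, 0.19 for Hbb-bh1 and 0.12 for Hbb-y. Leaving out single hearts turned the sign of uncalled differences in 15 of 48 cases: they ran from -0.0587 to 0.38 for Hbb-bh1, -0.0556 to 0.25 for Hbb-y, -0.13 to 0.60 for Hba-x, -0.19 to 1.12 for Alas2, -0.28 to 1.02 for Slc4a1, -0.35 to 0.37 for Klf1 and -0.13 to 0.56 for Gata1, and stayed positive for Hbb-b2 (0.09 to 0.57). The eM minus eI differences kept their sign for all 8 genes under every alternative run. The groups stood apart at 8 of 8 genes in all of these except quantile normalization and the stricter filter. Hbb-b2 overlapped in the former (7 of 8) and was left out by the latter (7 of 7). A change of filter, a heart left out or 1 genotype kept cannot make such groups overlap, so those runs add no support. The share of all tested genes below in eM hearts was 22.2% to 26.7% over filters, scaling and choice of probe set. It was 25.3% to 35.2% with a heart left out, and 47.8% and 37.9% within mutant and within wild-type hearts. Without wild-type 1, the difference was -2.26 for Alas2 and -0.78 for Hbb-bh1. Hbb-y moved to -0.77 with its probe set of largest variance, the less bright one.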

Other observations

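Adult globins were seen mainly through probe sets that the annotation gives to several genes together, and these were assigned to no gene. The one that lists 4 adult-type beta-globin genes read 13.30, 13.20 and 9.85 in mutant hearts 1, 2 and 3, against 12.25, 13.05 and 10.33 in wild-type hearts 1, 2 and 3. The difference between eM and eI hearts was -2.86 log2, 7.27-fold lower in eM hearts and more than any gene of the set. Of 3 probe sets that list 2 alpha-globin genes, the least bright gave -2.55 and each of the brighter ones -0.88. The brighter ones reached 14.76 and 14.41, near the highest value on any array, 14.79. How much this ceiling narrowed their differences was not tested. Mutant minus wild-type was 0.24 for the beta-globin probe set, with 0.60 among eI hearts and -0.48 between the eM hearts, and the genotypes overlapped (two-sided exact permutation p = 0.8).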
